A study of Homo sapiens with 12 samples.

Results

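TXNIP, the thioredoxins and the enzymes that clear peroxide were followed across K562 cells treated with nilotinib, imatinib or DMSO. The 10 genes were TXNIP, TXN, TXN2, TXNRD1, PRDX1, PRDX2, PRDX3, PRDX4, CAT and SOD1, out of 11963 genes that the array names by at least 1 probe set of their own. They were chosen by name, and all 20 probe sets that the platform annotation assigns to 1 of them were kept. K562 is a human erythroleukaemia line, grown from a patient with chronic myeloid leukaemia, and carries the BCR-ABL1 fusion kinase in all 3 groups. The groups were 4 arrays of cells given 0.05 µM nilotinib (AMN107), 4 arrays of cells given 0.5 µM imatinib (STI571), and 4 arrays of cells given the solvent DMSO, each for 24 h. Both drugs are inhibitors of the ABL kinase, and because their doses differed, drug and dose cannot be told apart in any difference between them. Nothing in the labels says that a group's 4 arrays are separate cultures. The p-values therefore reflect the scatter among these 12 samples alone, and part of it may be technical. A single cell line was used.

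Thioredoxin is a small protein that reduces disulfides in other proteins and is itself reduced by thioredoxin reductase with electrons from NADPH. TXNIP, an arrestin-fold protein, binds reduced thioredoxin and limits its activity, and it also lowers glucose uptake at the cell surface; its gene is a known target of the glucose-sensing MondoA factors. Peroxiredoxins remove hydrogen peroxide with electrons from thioredoxin, whereas catalase splits peroxide without it, and superoxide dismutase makes peroxide from superoxide. Red cells, the lineage K562 cells can be pushed towards, are known for high levels of peroxiredoxin 2 and catalase.

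Promoter sequences from RefSeq (GRCh38.p14) were found for 7 of the 10 genes in 9 windows of 250 bases that end at a transcription start. The 4 windows shown are for the 2 genes that changed most upward and for 2 peroxiredoxins whose windows hold an E-box, the site family that MondoA reads. Capitals mark letters that match a searched motif.
TXNIP (chr1:145996580-145996829, minus strand): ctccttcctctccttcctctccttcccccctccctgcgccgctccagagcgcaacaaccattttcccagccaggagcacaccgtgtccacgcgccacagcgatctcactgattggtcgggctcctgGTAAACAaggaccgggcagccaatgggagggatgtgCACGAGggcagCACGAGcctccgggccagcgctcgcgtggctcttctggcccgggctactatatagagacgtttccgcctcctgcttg
CAT (chr11:34438684-34438933, plus strand): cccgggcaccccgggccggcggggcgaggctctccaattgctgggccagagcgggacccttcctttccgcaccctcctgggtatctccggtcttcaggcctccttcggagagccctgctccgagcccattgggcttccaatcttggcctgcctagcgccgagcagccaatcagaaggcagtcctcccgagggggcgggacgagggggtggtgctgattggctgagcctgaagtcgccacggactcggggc
PRDX3 (chr10:119178813-119179062, minus strand): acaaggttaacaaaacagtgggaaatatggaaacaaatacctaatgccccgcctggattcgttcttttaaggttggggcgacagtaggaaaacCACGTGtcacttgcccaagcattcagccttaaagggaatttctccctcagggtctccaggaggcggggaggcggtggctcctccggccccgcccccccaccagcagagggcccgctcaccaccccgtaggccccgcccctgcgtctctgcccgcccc
PRDX4 (chrX:23667243-23667492, plus strand): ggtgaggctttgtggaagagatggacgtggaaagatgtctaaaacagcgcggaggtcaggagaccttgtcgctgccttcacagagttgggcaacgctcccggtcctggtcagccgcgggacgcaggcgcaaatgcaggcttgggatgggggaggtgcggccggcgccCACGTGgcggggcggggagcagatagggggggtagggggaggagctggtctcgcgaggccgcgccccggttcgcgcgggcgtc
In the TXNIP window shown, the letters GTAAACA, the core read by FOXO factors, stand at -124 to -118, counted from the start. The letters CACGAG stand at -88 to -83 and again at -77 to -72. CACGAG is a variant of the E-box that was added to the search after the sequence had been seen. The palindromic E-box CACGTG is in the PRDX3 window at -157 to -152 and in the PRDX4 window at -83 to -78. The windows were searched on both strands for these 3 motifs, for the core of the antioxidant response element, spelled TGACNNNGC, and for the GATA1 site, spelled AGATAA. No match overlapped another. Both TXNRD1 windows held the antioxidant response element core, and the second also held CACGAG, at -120 to -115. The CAT window and a further TXNIP window, not shown, held none of the 5 motifs. Over 35116 promoter windows of the same length, 2.98% held the FOXO core, 6.34% the palindromic E-box, 5.58% its variant, 10.9% the antioxidant response element core and 9.17% the GATA1 site. These matches describe letters and show no binding.

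Signals are linear MAS5 intensities, and changes are differences of log2(signal + 16) from a limma fit to 8021 genes with 1 probe set per gene, the brightest. Adjusted p-values (Benjamini-Hochberg) under 0.05 are called. The groups also differed as a whole. The median signal of an array was 166 to 194 with nilotinib, 135 to 155 with imatinib and 117 to 121 with DMSO, and the 28S ribosomal RNA control read 4591 to 5314, 4378 to 5190.0 and 1266 to 1807 in the same groups. The lowest two-sided p that 4 arrays against 4 can give in an exact permutation test is 0.0286. It was reached by each drug against DMSO for both measures, and by nilotinib against imatinib for the median signal. After adjustment over 12 such tests each of these was 0.0686. Of 6 erythroid markers 5 were tested, and 4 of them were higher with each drug (all but GATA1), where 34.7% of all genes were higher with nilotinib and 22% with imatinib. Their summed signal was 51206 to 56248 with nilotinib, 44492 to 49339 with imatinib and 29282 to 32675 with DMSO. Most of this sum was HBE1 and TFRC, which averaged 25183 and 20911 with nilotinib. Markers of lymphocytes, fibroblasts, and monocytes and granulocytes summed to 326 to 782, 412 to 553 and 1905 to 2492 with nilotinib, to 225 to 631, 239 to 477 and 2059 to 2748 with imatinib, and to 505 to 617, 190.2 to 410.4 and 2900.3 to 3191 with DMSO. Most of the last sum was LYZ, no marker was at 0, and the part of any of these measures in the results was not tested.

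TXNIP gave the largest response of the 10 genes, with 13.7 to 24.4 times the mean DMSO signal, depending on the probe set and the drug. Its brightest probe set, 201010_s_at, read 7922, 7639, 7841 and 8342 with nilotinib. The imatinib arrays read 7057, 6544, 6936 and 7642, and the DMSO arrays 369, 290.3, 347 and 292. Every drug array stood far above every DMSO array, while the lowest nilotinib array and the highest imatinib array met at almost the same signal. The means were 7936 ± 296 with nilotinib, 7045 ± 454 with imatinib and 325 ± 39.9 with DMSO (SD, n = 4 each), which are 24.4 and 21.7 times the DMSO mean. The log2 fold change was 4.55 ± 0.08 (SE, adjusted p = 1.8e-18) for nilotinib and 4.38 ± 0.08 (adjusted p = 3.8e-18) for imatinib, each the 2nd highest of all 8021 genes tested. As arrays were made from bulk RNA, more RNA per cell and more cells with a high level cannot be told apart.

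The other TXNIP probe sets moved the same way. Probe set 201009_s_at read 3734 to 5129 with nilotinib, 3282 to 3670.3 with imatinib and 193 to 299.9 with DMSO, with log2 fold changes of 4.01 and 3.71. Probe set 201008_s_at read 1222 to 1869 with nilotinib, 779 to 1286 with imatinib and 68.4 to 71.8 with DMSO, and its log2 fold changes were 4.17 and 3.61. All 3 are of the _s_at kind, which can bind several transcripts of a gene. None of the 3 overlapped between a drug and DMSO, as was the case for 48% (nilotinib) and 36.6% (imatinib) of all probe sets tested. When 11696 probe sets were tested separately, all 3 passed for both drugs, where 54.9% (nilotinib) and 35.6% (imatinib) of all probe sets passed.

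**Figure D1:**
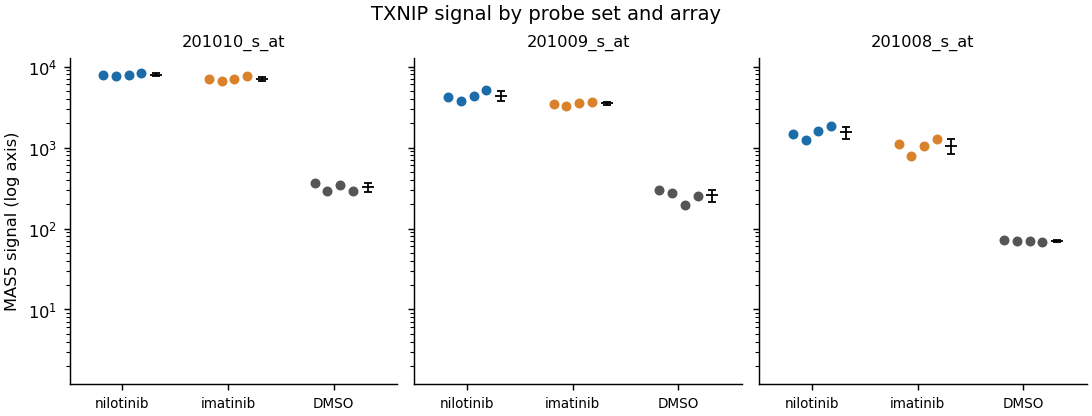
MAS5 signal (log axis) of the 3 TXNIP probe sets on each of 12 arrays, with bars for the mean ± SD of 4 arrays. In each panel all nilotinib and imatinib arrays lie above all DMSO arrays; the brightest probe set averaged 7936 with nilotinib, 7045 with imatinib and 325 with DMSO.

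Nilotinib and imatinib did not differ in TXNIP by the brightest probe set beyond the threshold. The difference was 0.17 ± 0.08 on the log2 scale (adjusted p = 0.149), with a 95% interval of 0.00 to 0.34, and it became -0.12 when arrays were centred on their medians. It passed under quantile normalization, where it was 0.29. The probe set 201008_s_at did pass, with 0.55 ± 0.15 (adjusted p = 0.0239), against 11.4% of all probe sets called in this comparison. The third, 201009_s_at, had 0.30 ± 0.11 (adjusted p = 0.0977).

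The 5 profiles nearest to that of TXNIP over the 12 arrays were those of ALAS2, CYP3A5, CLIC3, HBD and CTSE. Likeness was measured as the root mean square of the difference between the log2 profiles, after subtracting each gene's mean over the DMSO arrays. All of these genes share the 12 arrays. ALAS2, the red cell enzyme that starts heme synthesis, was nearest at 0.29. It averaged 7231 ± 668 with nilotinib, 5299 ± 835 with imatinib and 232 ± 53.8 with DMSO (SD, n = 4 each). CYP3A5, a drug-metabolising cytochrome, was next at 0.49, with 3271 ± 505, 1851 ± 239 and 139 ± 15.04 in the same groups. CLIC3, a chloride channel family member, HBD, the delta globin gene, and CTSE, the protease cathepsin E, followed at 0.85, 0.90 and 0.95. CLIC3 averaged 509 ± 129 with nilotinib, 297 ± 61.8 with imatinib and 18.9 ± 15.2 with DMSO. Its DMSO mean lay below the filter and near the 16 added to each signal, on which its distance depends. The measure keeps the size of a change, so genes raised about as strongly as TXNIP lie near it by that alone.

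CAT, which encodes catalase, also rose with both drugs. Its brightest probe set, 201432_at, read 9259.8, 9491, 9698 and 9672 with nilotinib. It read 8215, 7791, 8337 and 9082 with imatinib, against 2908, 2746, 2881 and 2946 with DMSO. The 3 groups did not overlap at any point, and the order was nilotinib, imatinib, DMSO. Against DMSO, the log2 fold change was 1.73 ± 0.06 for nilotinib (adjusted p = 2.1e-14) and 1.53 ± 0.06 for imatinib (adjusted p = 1.5e-13). The mean signals were 3.32 and 2.91 times that of DMSO.

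The second CAT probe set, 211922_s_at, agreed in size, with log2 fold changes of 1.83 and 1.51. It averaged 1708 ± 321 with nilotinib, 1375 ± 286 with imatinib and 464 ± 35.7 with DMSO (SD, n = 4 each). The third, 215573_at, was dim and fell below the filter, and its arrays read 25.4 to 149.6 with nilotinib, 20.5 to 80.4 with imatinib and 3.62 to 42.1 with DMSO. Nilotinib exceeded imatinib in CAT by 0.19 ± 0.06 on the log2 scale (adjusted p = 0.0369); the difference was -0.11 after median centring, and it missed the threshold without any 1 of imatinib replicates 5, 6 and 7 and nilotinib replicates 2, 3 and 4 (0.16 to 0.19). The nearest profiles to CAT were UCP2, a mitochondrial carrier, at 0.06, NARF at 0.10, FECH, the last enzyme of heme synthesis, at 0.10, NPL at 0.11 and ADA, adenosine deaminase, at 0.11. UCP2 averaged 8776 ± 592 with nilotinib, 7516 ± 426 with imatinib and 2626 ± 37.0 with DMSO (SD, n = 4 each).

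TXN, the cytosolic thioredoxin that TXNIP binds, fell with both drugs. Probe set 208864_s_at read 5780.1, 4702, 4593 and 4718 with nilotinib. It read 6519.9, 7365, 6414 and 5865 with imatinib, against 8149.7, 8556, 8434 and 8017 with DMSO. The 3 groups stood apart in the order nilotinib, imatinib, DMSO, from low to high, although nilotinib replicate 1 lay close to the lowest imatinib array. Against DMSO, the log2 fold change was -0.75 ± 0.08 for nilotinib (adjusted p = 1.5e-07) and -0.35 ± 0.08 for imatinib (adjusted p = 0.0015). The dimmer probe set 216609_at did not pass for either drug, with -0.33 (adjusted p = 0.0733) and 0.07 (adjusted p = 0.748), and with the mean of both probe sets the imatinib change was -0.14 and no longer called.

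TXNRD1, the cytosolic reductase that recharges thioredoxin, fell too. Its only probe set, 201266_at, read 1179, 1129.9, 1491 and 1202 with nilotinib. It read 1436, 1676, 1412 and 1504 with imatinib, against 1915, 2044, 1953 and 2239.6 with DMSO. Both drug groups lay below every DMSO array, and they overlapped each other because nilotinib replicate 3 was high. Nilotinib gave a log2 fold change of -0.70 ± 0.09 (adjusted p = 3.2e-06) and imatinib -0.43 ± 0.09 (adjusted p = 9.4e-04).

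TXN2, the mitochondrial thioredoxin, moved the other way. Probe set 209078_s_at read 1674, 1715, 2444 and 2579.6 with nilotinib. It read 1529, 1416, 2252 and 2323 with imatinib, against 1250.4, 1262, 1310.3 and 1324 with DMSO. Both drug groups were above DMSO and split in pairs. Nilotinib gave a log2 fold change of 0.67 ± 0.15 (adjusted p = 0.00104) and imatinib 0.51 ± 0.15 (adjusted p = 0.0129). The second probe set, 209077_at, gave 0.55 ± 0.10 (adjusted p = 2.0e-04) and 0.60 ± 0.10 (adjusted p = 1.3e-04). After median centring the changes were 0.15 and 0.28 and did not pass, and the imatinib change did not pass without imatinib replicate 7 (0.41) or 8 (0.39).

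The split matched a measure of RNA quality, the ratio of the actin control's 3' signal to its 5' signal. Nilotinib replicates 1 and 2 and imatinib replicates 5 and 6 had ratios over 3.5, and no DMSO array did. On those arrays 209078_s_at was lower by 0.56 (nilotinib) and 0.63 (imatinib) on the log2 scale than on the other 2 arrays of the drug, whereas 209077_at was higher by 0.02 and 0.30. Among other tested probe sets lower on the same arrays with both drugs were CAT 211922_s_at, with differences of -0.40 and -0.46, PRDX2 215067_x_at, with -0.31 and -0.46, and TXNIP 201008_s_at, with -0.36 and -0.31. Smaller differences of the same sign were found for PRDX3 209766_at (-0.30 and -0.17), PRDX1 (-0.28 and -0.12), TXNIP 201009_s_at (-0.26 and -0.10), TXNIP 201010_s_at (-0.06 and -0.10) and CAT 201432_at (-0.05 and -0.12). Others were higher on the same arrays with both drugs, namely TXN 216609_at (0.19 and 0.40) and TXN 208864_s_at (0.16 and 0.18). So were PRDX2 201006_at (0.16 and 0.15), PRDX2 211658_at (0.20 and 0.04) and PRDX4 (0.11 and 0.11). SOD1, TXNRD1, PRDX3 201619_at and PRDX2 39729_at differed in sign between the drugs. TXN2 passed for both drugs without those arrays, with 0.96 (nilotinib) and 0.82 (imatinib), and with a term for the high ratio in the fit, with 0.97 and 0.81. The drug arrays left had ratios of 1.82 and 2.10 (nilotinib) and 2.71 and 2.04 (imatinib), against 2.66 to 3.34 with DMSO. Neither fit therefore makes the drug and DMSO groups alike in this ratio, and its part in these values was not tested.

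**Figure D2:**
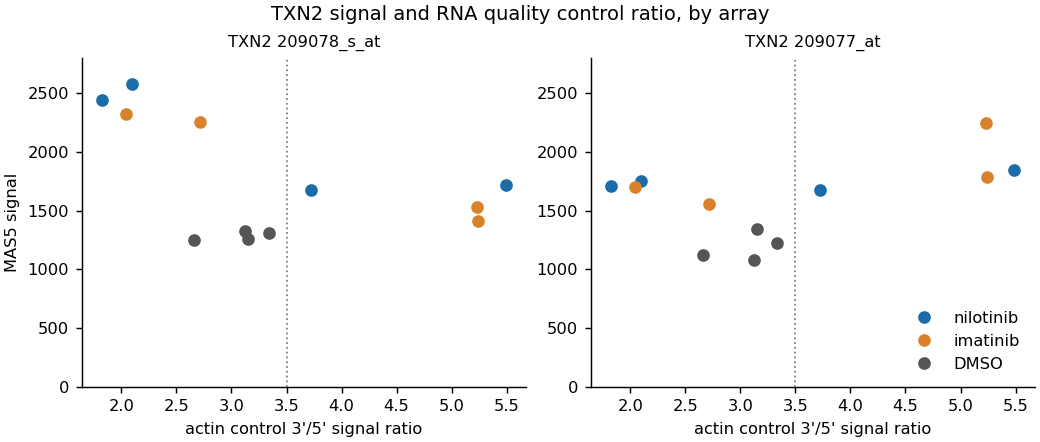
TXN2 signal against the actin 3'/5' ratio, 1 point per array, for both probe sets; the dotted line is a ratio of 3.5. The 4 drug arrays right of the line read 1416 to 1715 for 209078_s_at, and the 4 left of it read 2252 to 2579.6, with no such gap for 209077_at.

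Of the peroxiredoxins, PRDX1, PRDX3 and PRDX4 fell by their brightest probe sets with both drugs. PRDX1, a cytosolic enzyme, read 4415, 4491, 5575 and 5263 with nilotinib. It read 5897, 6059.9, 6250.3 and 6754 with imatinib, against 8283, 7860.3, 8475 and 8879.9 with DMSO. No array of a group reached into another group. The fitted log2 fold change was -0.77 ± 0.08 for nilotinib (adjusted p = 8.1e-08) and -0.42 ± 0.08 for imatinib (adjusted p = 1.7e-04).

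PRDX4, the peroxiredoxin of the endoplasmic reticulum, showed the widest gap between the drugs. Its only probe set, 201923_at, read 3405, 3275, 3279.6 and 2902 with nilotinib. It read 4958, 5606, 4639.9 and 5164 with imatinib, against 6405, 5925, 6149 and 5993 with DMSO. The groups did not overlap, and the nilotinib arrays stood farthest from the rest. The log2 fold change was -0.93 ± 0.07 for nilotinib (adjusted p = 1.5e-09) and -0.27 ± 0.07 for imatinib (adjusted p = 0.00446).

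PRDX3, the mitochondrial enzyme that works with TXN2, had opposite values from its probe sets. The brighter one, 201619_at, read 3092, 2725, 2899 and 3333 with nilotinib. It read 3615, 3644, 3251 and 3488 with imatinib, against 4267, 4591, 4526 and 4181 with DMSO. Both drug groups were below DMSO, with log2 fold changes of -0.54 ± 0.07 (nilotinib, adjusted p = 2.7e-06) and -0.33 ± 0.07 (imatinib, adjusted p = 0.00104). The dim one, 209766_at, read 118 to 255 with nilotinib, 92.9 to 166 with imatinib and 83.7 to 171 with DMSO. Its change was 0.71 ± 0.28 for nilotinib (adjusted p = 0.0408) and 0.21 ± 0.28 for imatinib (adjusted p = 0.598), so the mean of both probe sets was 0.08 and -0.06 and passed for neither.

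PRDX2, the most abundant peroxiredoxin of red cells, also had probe sets that disagreed. The brightest, 39729_at, read 5751, 6022, 6221 and 5822 with nilotinib. It read 7176, 7154, 6517 and 7057 with imatinib, against 5800.5, 6027, 5821 and 6168 with DMSO. The imatinib arrays were above both other groups, and the nilotinib and DMSO arrays were mixed. The log2 fold change was -0.00 ± 0.06 for nilotinib (adjusted p = 0.998, 95% interval -0.12 to 0.12) and 0.23 ± 0.06 for imatinib (adjusted p = 0.00345). The nilotinib value was 0.16 under quantile normalization and -0.52 after median centring, and the imatinib value was 0.00 after median centring and no longer called.

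Of the 3 dimmer PRDX2 probe sets, 201006_at rose with both drugs, by 0.82 ± 0.18 (nilotinib, adjusted p = 0.00108) and 0.53 ± 0.18 (imatinib, adjusted p = 0.0312). Probe set 215067_x_at rose with nilotinib by 0.65 ± 0.16 (adjusted p = 0.00268) and had 0.39 ± 0.16 with imatinib (adjusted p = 0.0742). Probe set 211658_at passed for neither, with -0.31 (adjusted p = 0.0542) and 0.00 (adjusted p = 0.993). An _x_at probe set holds probes that can bind related transcripts. The mean of the 4 probe sets gave 0.29 for nilotinib.

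**Figure D3:**
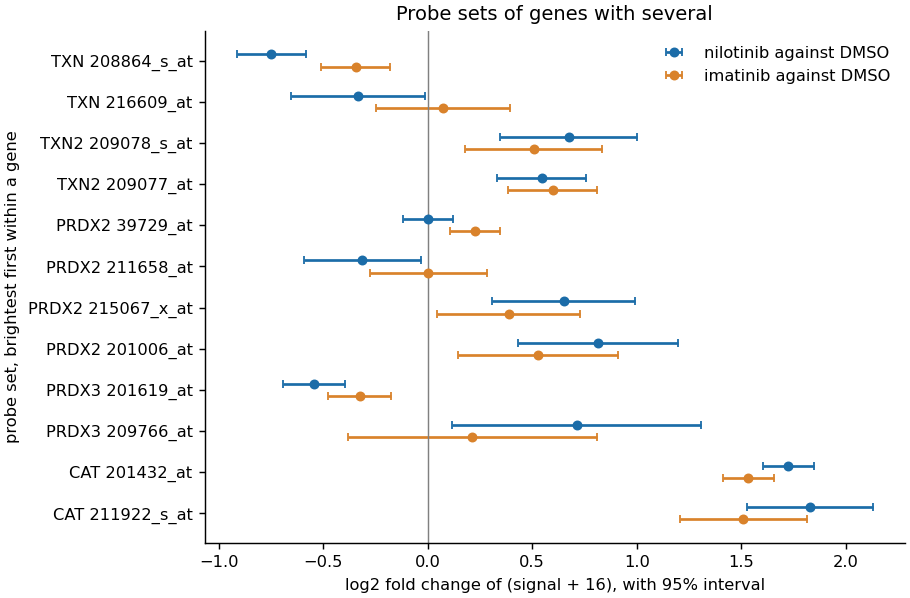
Log2 fold changes of log2(signal + 16) against DMSO for genes other than TXNIP with several tested probe sets, brightest first within a gene, with 95% intervals. Both CAT and both TXN2 probe sets lie right of 0 for each drug, while the PRDX2 and PRDX3 probe sets fall on both sides for nilotinib.

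SOD1, the cytosolic copper-zinc superoxide dismutase, rose slightly with imatinib. Its probe set 200642_at read 11808, 11841, 12491 and 10696 with nilotinib. It read 13258, 11944, 13257 and 12110.4 with imatinib, against 10159.7, 10731, 10453 and 11219 with DMSO. The imatinib arrays were all above DMSO, and 1 nilotinib array, replicate 4, lay within the DMSO range. The log2 fold change was 0.14 ± 0.06 for nilotinib, which missed the threshold (adjusted p = 0.0648), and 0.25 ± 0.06 for imatinib (adjusted p = 0.00333). After median centring these were -0.39 and 0.02, of which the second was no longer called.

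**Figure D4:**
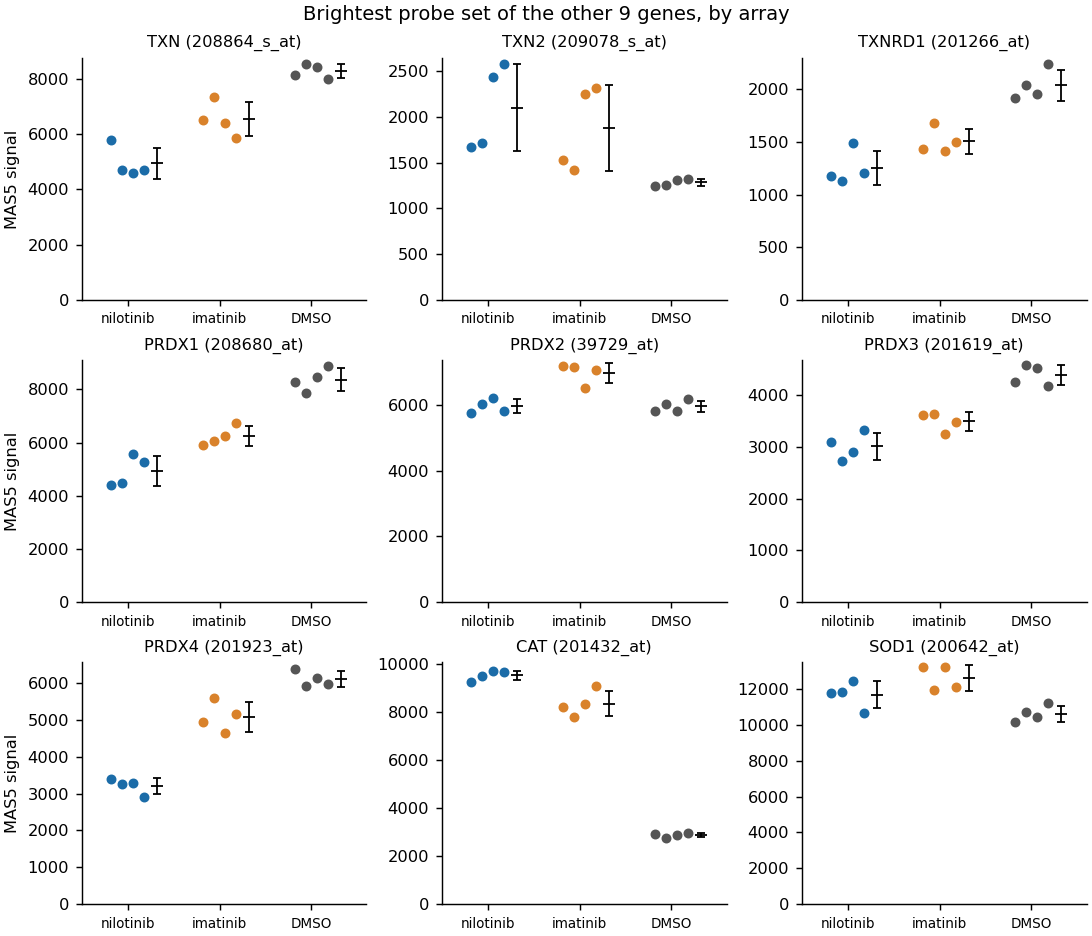
MAS5 signal of the brightest probe set of the other 9 genes on each array, with bars for the mean ± SD of 4 arrays. TXN, TXNRD1, PRDX1, PRDX3 and PRDX4 have all drug arrays below all DMSO arrays, and CAT and TXN2 have all of them above.

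Counted over the 10 genes, 3 were higher with nilotinib than with DMSO (TXNIP, CAT, TXN2) and 5 were lower (TXN, TXNRD1, PRDX1, PRDX3, PRDX4). Among all 8021 genes tested, 58.2% were called for nilotinib, 34.7% higher and 23.5% lower. With imatinib 5 were higher (the same 3, PRDX2 and SOD1) and the same 5 lower, where 39.4% of all genes were called, 22% higher and 17.3% lower. The arrays of the drug and of DMSO did not overlap for 8 genes with nilotinib, against 50.7% of all genes, and for 10 with imatinib, against 39.1%. The median log2 fold change of the 10 genes was -0.27 for nilotinib and -0.02 for imatinib, beside 0.15 and 0.09 over all genes. Both comparisons use the same 4 DMSO arrays. After median centring the median of all genes was -0.37 for nilotinib and -0.13 for imatinib, so the smaller changes depend on the scaling. The 5 genes that fell and TXNIP and CAT kept their direction and call under quantile normalization, cyclic loess and median centring.

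**Figure D5:**
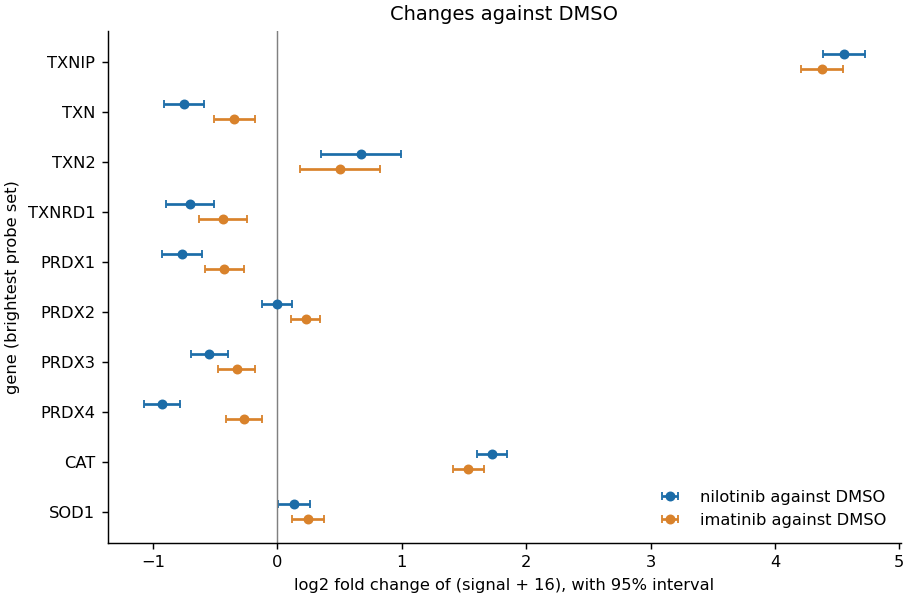
Log2 fold changes of log2(signal + 16) against DMSO for the 10 genes, with 95% intervals, nilotinib above imatinib for each gene. TXNIP lies beyond 4 for both drugs, CAT between 1 and 2, and the 5 genes that fell lie between -1 and 0.

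Nilotinib at 0.05 µM was set against imatinib at 0.5 µM for the same 10 genes. It was lower for PRDX4, TXN, PRDX1, PRDX2 and PRDX3 and higher for CAT, with 4 genes not called, where 14% of all genes were called (5.82% higher, 8.22% lower). PRDX4 differed by -0.66 ± 0.07 on the log2 scale (adjusted p = 1.6e-05), with means of 3215 ± 217 with nilotinib and 5092 ± 405 with imatinib (SD, n = 4 each). TXN differed by -0.40 ± 0.08 (adjusted p = 0.00257), PRDX1 by -0.34 ± 0.08 (adjusted p = 0.00636), PRDX2 by -0.23 ± 0.06 (adjusted p = 0.0128) and PRDX3 by -0.22 ± 0.07 (adjusted p = 0.0461). The dimmer tested probe sets of PRDX2, PRDX3, TXN and CAT were not called when probe sets were tested separately. In that fit the brightest PRDX3 probe set, 201619_at, missed the threshold as well, at -0.22 (adjusted p = 0.0542). PRDX2 201006_at had 0.29, 215067_x_at 0.26 and 211658_at -0.32, and PRDX3 209766_at had 0.50. TXN 216609_at had -0.41 and CAT 211922_s_at 0.32. TXNRD1 missed the threshold at -0.27 (adjusted p = 0.056, 95% interval -0.46 to -0.08). TXN2 did so at 0.17 (adjusted p = 0.486, interval -0.15 to 0.49), as did SOD1 at -0.11 (adjusted p = 0.23, interval -0.24 to 0.02).

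The arrays of the drugs did not overlap for 5 of the 10 genes, against 18% of all genes, and the median of the 10 was -0.22, beside 0.05. Among the 2 nilotinib and 2 imatinib arrays with an actin ratio above 3.5, PRDX4 differed by -0.66 and TXN by -0.41; among the 4 with a lower ratio the differences were -0.66 and -0.40. PRDX3 differed by -0.32 and -0.11 in the same sets, and PRDX1 by -0.42 and -0.26. Without the 4 arrays of high ratio only PRDX4 and TXN were called. Leaving out any 1 of 10 single arrays ended the PRDX3 call (adjusted p up to 0.132), DMSO arrays included, since they share the estimate of the spread.

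On the deposited scale, the wider thioredoxin family moved in both directions. Of 19 other thioredoxin-fold proteins and disulfide reductases 14 were tested, and 5 rose and 7 fell with nilotinib, while 5 rose and 4 fell with imatinib. Over all genes 34.7% were higher and 23.5% lower with nilotinib, and 22% higher and 17.3% lower with imatinib. The median log2 fold change of the 14 was -0.32 for nilotinib and -0.09 for imatinib. After median centring, 0 of the 14 were higher and 10 lower with nilotinib, and 2 higher and 7 lower with imatinib. Of all 8021 genes, 831 were then higher and 3947 lower with nilotinib, and 820 higher and 2276 lower with imatinib. GLRX2, a mitochondrial glutaredoxin, averaged 933 ± 91.4 with nilotinib, 1216 ± 97.9 with imatinib and 2623 ± 66.9 with DMSO (SD, n = 4 each), log2 fold changes of -1.48 and -1.10. GLRX3, an iron-sulfur glutaredoxin, fell by 1.17 (nilotinib) and 0.94 (imatinib) on the log2 scale in its brightest probe set, whereas 214205_x_at had -0.32 (adjusted p = 0.217) and -0.27 (adjusted p = 0.366). TMX2, a thioredoxin-like membrane protein, fell by 0.71 with nilotinib and 0.45 with imatinib. GLRX, the cytosolic glutaredoxin, rose by 0.91 with nilotinib and 1.28 with imatinib, and after median centring the nilotinib value was 0.39 and not called. Its other probe set, 209276_s_at, rose by 1.23 with nilotinib and 0.94 with imatinib, the reverse order of the drugs. Nilotinib was lower than imatinib for 4 of the 14, where 8.22% of all genes were lower. That count was 1 under quantile normalization, under cyclic loess and without the arrays of high actin ratio. It was 2 without nilotinib replicate 2 or imatinib replicate 5. After median centring it was 13, where 2646 of 8021 genes were lower.

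Among 14 other peroxide- and superoxide-removing proteins and helpers only 4 were tested, as 5 lay below the filter and 5 had no probe set of their own. CCS, the chaperone that loads copper into SOD1, rose with nilotinib by 1.12 ± 0.14 (adjusted p = 1.3e-06) and with imatinib by 0.90 ± 0.14 (adjusted p = 2.8e-05). It averaged 580.4 ± 87.4 with nilotinib, 494 ± 36.6 with imatinib and 258 ± 29.9 with DMSO (SD, n = 4 each). SESN1, a sestrin, rose by 0.67 with nilotinib and 0.80 with imatinib, and after median centring the nilotinib value was 0.15 and not called. GPX4, which removes lipid peroxides, fell with nilotinib by 0.36 and had -0.15 with imatinib (adjusted p = 0.0982). PRDX6 fell with nilotinib by 0.20 in its brightest probe set and had -0.04 with imatinib (adjusted p = 0.634), and with quantile normalization the nilotinib value was -0.03 and not called. Its other probe set, 200845_s_at, fell with both drugs, with -0.46 for nilotinib (adjusted p = 2.1e-05) and -0.35 for imatinib (adjusted p = 5.8e-04). GPX1, the main red cell glutathione peroxidase, lay below the filter, with 9.12 to 33.8 in nilotinib arrays, 4.73 to 6.47 in imatinib arrays and 3.72 to 7.94 in DMSO arrays. Between the drugs GPX4 came nearest to a call, with -0.21 (adjusted p = 0.0575).

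Of 8 proteins that thioredoxin reduces or holds, or that belong to an enzyme it reduces, 7 were tested. With nilotinib 3 were higher and 1 lower, where 58.2% of all genes were called. With imatinib 4 were higher, where 39.4% of all genes were called. RRM2, the small subunit of ribonucleotide reductase, averaged 2785 ± 181 with nilotinib, 4431 ± 299 with imatinib and 2248 ± 90.4 with DMSO (SD, n = 4 each). It rose by 0.31 with nilotinib and 0.97 with imatinib, and nilotinib was below imatinib by 0.67 (log2 difference -0.67 ± 0.07, adjusted p = 1.6e-05). For RRM2 with nilotinib, median centring gave -0.22 and the second probe set, 201890_at, -0.04 (adjusted p = 0.697). RRM1, the large subunit, fell with nilotinib by 0.59 in its brightest probe set and had -0.10 with imatinib (adjusted p = 0.339), while 201476_s_at had -0.08 and -0.10 (adjusted p = 0.598 and 0.579). The methionine sulfoxide reductase MSRB2 rose by 0.54 with nilotinib and 0.64 with imatinib, and MSRA by 0.44 and 0.56. After median centring, the nilotinib values of these 2 were 0.01 and -0.08, and neither passed. The MSRA call with nilotinib also ended without nilotinib replicate 1 (0.40) or 4 (0.42) or DMSO replicate 9 (0.43) or 10 (0.36).

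Of 9 arrestin-fold relatives and glucose-sensing factors 4 were tested, and the 4 ARRDC genes, relatives of TXNIP, had no probe set of their own. MLXIP, which encodes MondoA, averaged 1556 ± 187 with nilotinib, 1178 ± 146 with imatinib and 917 ± 41.6 with DMSO (SD, n = 4 each). It rose by 0.75 ± 0.10 (adjusted p = 4.8e-06) with nilotinib and 0.35 ± 0.10 (adjusted p = 0.00973) with imatinib, and after median centring it had 0.22 and 0.12 and passed for neither. MLX, the partner of MondoA on DNA, had -0.18 with nilotinib (adjusted p = 0.122) and fell by 0.50 with imatinib (adjusted p = 4.2e-04), and 1 of its 3 other probe sets passed for imatinib. Nilotinib exceeded imatinib in both, by 0.40 (MLXIP, adjusted p = 0.0141) and 0.32 (MLX, adjusted p = 0.0359), and after median centring these were 0.10 and 0.02. The MLX difference also missed the threshold without nilotinib replicate 2, 3 or 4 or imatinib replicate 7 or 8 (0.26 to 0.32).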

How the data were processed

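Total RNA of 12 K562 samples was labelled with biotin and hybridised to Affymetrix U133A 2.0 arrays, per the labels. The authors deposited linear intensity values, made with MAS5 per the submitters' processing notes; its version is not given in the sources used here. Trimmed of 2% at each end, the arrays averaged 500.1 to 500.2, so they were used as deposited. MAS5 applies 1 scaling factor per array and so does not remove a shift in RNA composition. Groups came from the sample titles, and 0 columns were unmapped.

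The tests used log2(signal + 16). Among 22277 probe sets 62 were controls, and of the rest 19064 named 1 gene, 1043 several and 2108 none; only the first kind was used. Probe sets with a mean below the 40th percentile of all (a signal of about 80.6) were dropped and the brightest of each gene was kept, leaving 8021 genes, the 10 members among them. Of the 20 member probe sets 19 passed. One mean per group was fitted with limma 3.58.1 (R 4.3.3) with a variance trend, with Benjamini-Hochberg adjustment within each of 3 comparisons; probe sets were tested separately in a second fit of 11696. The number of arrays limits the precision, with a median SE of 0.146 over all genes, and log2(signal + 16) understates changes of dim genes. The fit was tested on simulated data. Figures used matplotlib 3.10.9 in Python 3.11.15.

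The members, lists and markers were chosen with earlier results of these data known. Named genes were the 10 members, up to 4 called genes of each of 4 lists with the largest change against DMSO with either drug, and the 5 nearest profiles to TXNIP and to CAT. The lists were arrestin-fold relatives and glucose-sensing factors, other thioredoxin-fold proteins and reductases, other peroxide- and superoxide-removing proteins, and proteins reduced or held by thioredoxin. The last list included subunits of an enzyme that thioredoxin reduces, ribonucleotide reductase. Alternatives were other pseudocounts, filters, scalings, probe set summaries and variance models, array weights, a minimum change, the arrays of high actin ratio left out, and each array left out in turn; a term for the actin ratio was added after the data were seen.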

Additional observations from a re-analysis of the deposited data

Results flagged for a closer look

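The TXN signal of nilotinib replicate 1 was 5780.1 in probe set 208864_s_at, while the other 3 nilotinib arrays read 4593 to 4718. Its gap to the nearest of them was 0.895 of the whole range of the group, above Dixon's 95% critical value for 4 samples. This was 1 of 60 groups of 4 arrays examined (20 probe sets in 3 groups), and chance flags about 1 in 20. Without that array the TXN log2 fold change was -0.82 for nilotinib against DMSO and -0.48 for nilotinib against imatinib, and both passed.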

How the results depend on the processing

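TXNIP, CAT, TXNRD1, PRDX1 and PRDX4 kept direction and call against DMSO for both drugs under all 26 alternatives, with TXNIP at 4.03 to 4.67 for nilotinib and 3.90 to 4.44 for imatinib. Over 30 log2 fold changes and 26 alternatives, 707 of 780 values kept both, 43 lost and 13 gained a call, and 17 turned sign; 48 of these changes lay between the drugs. The causes were not tested. Median centring turned nilotinib minus imatinib to -0.11 for CAT, -0.13 for TXN2 and -0.12 for TXNIP, and nilotinib minus DMSO to -0.39 for SOD1. TXNIP between the drugs passed with cyclic loess (0.27), quantile normalization (0.29) and the mean of probe sets (0.34). That mean turned PRDX3 to 0.084 (nilotinib minus DMSO) and 0.14 (nilotinib minus imatinib) and PRDX2 between the drugs to 0.0026; cyclic loess turned SOD1 between them to 0.012. PRDX2 with nilotinib, near 0, turned to 0.0063 (array weights), 0.13 (cyclic loess), 0.29 (mean of probe sets), 0.16 (quantile normalization) and 0.016 (without the arrays of high actin ratio), and ranged from -0.021 to 0.017 with each array left out. Genes called with a minimum log2 change of 1 (limma's treat) were 2, 2 and 0 of 10 for nilotinib against DMSO, imatinib against DMSO and nilotinib against imatinib, against 8, 10 and 6 without a minimum. With no minimum, the count between the drugs was 3 without a variance trend and 2 without the arrays of high actin ratio, and with each array left out the 3 counts were 8 to 9, 9 to 10 and 4 to 5. No paired analysis was possible because the groups share no replicate numbers. Signals near the filter limit what can be said of GPX1, PRDX3 209766_at and CAT 215573_at.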
